A study of Mus musculus with 7 samples.

Results

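The 6 arrays described here are 3 bladders of adult mice and 3 bladders of mice at postnatal day 1, out of 7 arrays in the series; they were chosen by their labels. All 6 came from single, unpooled samples of male FVB/N mice that carry an EGFP reporter driven by a promoter of SMGA, the gene for smooth muscle gamma-actin (Actg2). The adult bladders are labelled Theiler stage 28 and the newborn ones Theiler stage 27, and both groups were untreated as far as the labels tell. Whole bladders were taken by gross dissection, so urothelium, muscle, connective tissue, vessels and nerves share each RNA sample. The seventh array holds whole wild-type newborns and was left out. The adult samples were stored in liquid nitrogen but the newborn ones in a freezer, and the effects of stage and of storage cannot be told apart. Nothing in the labels says how many litters or days the samples come from, so the tests measure the spread between single samples, and with 3 arrays a group the number of arrays limits the precision.

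The bladder stores urine behind the urothelium, a layered epithelium whose surface cells carry uroplakin plaques, and empties through the detrusor, a coat of smooth muscle. Between birth and adulthood the organ stops most of its growth, its wall grows more compliant, and voiding comes under mature control. In such a whole organ, fewer cells of a type and less RNA per cell cannot be told apart.

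The labelled tissue was checked against its defining markers. Among smooth muscle markers, Myh11, the smooth muscle myosin heavy chain, read 53169.8, 39151 and 48828 in adult replicates 1 to 3 and 61813, 48325 and 56313 in newborn replicates 1 to 3 (arbitrary intensity units, scaled by the authors to a common mean per array). Upk1b, a uroplakin of the surface cells, read 46054, 55871 and 46244 and 56135, 54596 and 64261 in the same order, and Upk3a 28399, 32532 and 27535 and 22535, 26812 and 36700.3. The ranges of the stages overlapped for Myh11, Upk1b and Upk3a, and both tissues of the bladder wall were present on every array. Intensities belong to 1 probe set each and are compared here only between arrays. Differences are on the scale of log2(intensity + 49), adult minus newborn, where 1 unit is a doubling and low genes are understated.

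Depth has no counterpart here; the median intensity was 226 to 312 on the adult arrays and 209 to 290.2 on the newborn ones. Log2 values correlated between replicates with r from 0.931 to 0.971, a description across probe sets. Adult replicate 2 stood apart: on 142 of 11948 genes it read at least 2-fold above, and on 266 at least 2-fold below, all 5 other arrays, against 5 to 62 and 23 to 127 on the others. Spiked-in control RNA read 2.33 times as high on it as on the lowest array. Adult replicates 1 and 3 carried transcripts of male accessory glands, which lie beside the bladder: the summed intensity of 27 such markers was 18704, 3906 and 16823 in adult replicates 1 to 3 and 8081 to 9494 in newborns. Of these markers, 6 passed the filter on low values, 9 were at least 2-fold higher in adult replicates 1 and 3 than on all 4 other arrays, and Sva was below 49 on every array. For Svs4, a seminal vesicle protein, the values were 3149.7, 3.45 and 3861 against 5.98, 0.93 and 3.98. As a sign of RNA quality, the 3′ over 5′ control probe sets of Actb gave ratios of 3.84 to 5.15 in adults and 1.85 to 3.7 in newborns, without overlap, while those of Gapdh were 15.3 to 19.6 and 19.1 to 30.9. The part of storage, RNA quality and accessory gland tissue in the results below was not tested, and the main genes are also given without adult replicate 2. Beside a list, the counts without that array or with median centring are given where either moves the larger count by over 1.5 times or turns its balance, and for some other lists. Of the genes named below as called with no such second value, Irs1, Gsta2 and Hells were not called without that array.

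Of 18194 genes on the array, 11948 passed the filter, and 1057 changed between the stages (8.85%), 475 higher (3.98%) and 582 lower (4.87%) in adult bladder, by limma with Benjamini-Hochberg adjusted p under 0.05. Rises had a median size of 1.55 and falls of -1.93. The groups did not overlap for any of the 1057 called genes. For 450 of the called genes another probe set was tested. All others had the same sign for 376 of these, another was called the same way for 207, and another the opposite way for 4. Without overlap, but called or not, were 1885 genes higher (15.8%) and 1972 lower (16.5%). Without adult replicate 2, 1360 genes were called (11.4%), 620 higher (5.19%) and 740 lower (6.19%); 912 of the 1057 were among them in the same direction and 0 in the opposite one. Of the called genes, 113 were on cell division lists and 26 on immune lists, and the remaining 918 (449 higher, 469 lower) are the subject here. All cell division calls were falls (73 of 90 tested mitosis genes), and 26 immune calls were rises, values that move with the stage beside every result below.

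**Figure D1:**
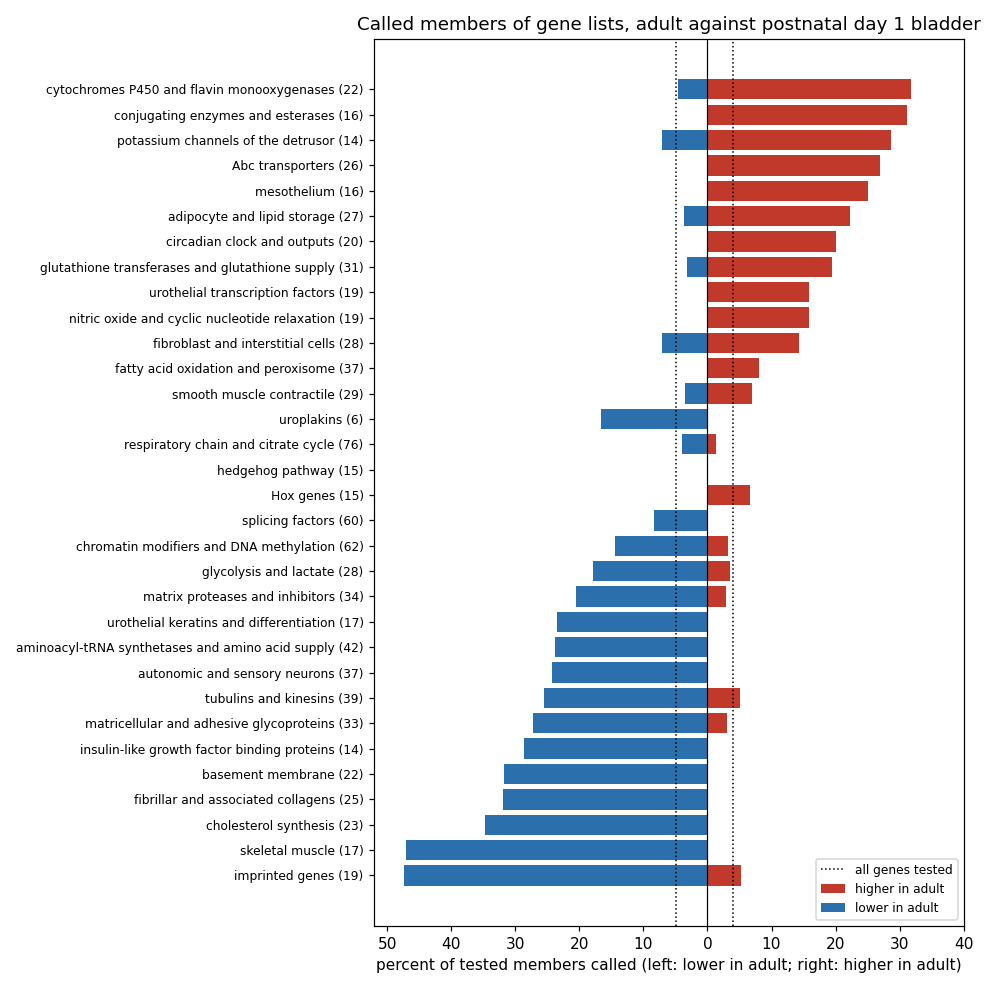
Bars give the percent of tested members of 32 gene lists that were called higher (right, red) or lower (left, blue) in adult bladder; the number tested stands in parentheses, and the dotted lines mark all genes tested, 3.98% higher and 4.87% lower. Enzyme, channel and transporter lists lie past the line on the right and sterol, matrix, imprinted and skeletal muscle lists past the line on the left, with 34.8% of sterol synthesis genes lower and 0 hedgehog genes called.

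Adult bladder gained enzymes that oxidise and conjugate foreign and endogenous small molecules. Cytochromes P450 and flavin monooxygenases insert oxygen into such molecules, and transferases then couple them to glutathione or sugars. Of 22 tested P450, flavin monooxygenase and related genes, 7 rose and 1 fell (median 1.06, all genes -0.01; 10 rose and 1 fell without adult replicate 2). Inmt, a methyltransferase for indoles and other amines, had values of 13616, 14945 and 13362 in adult replicates 1 to 3 and 547, 549.8 and 403 in newborn replicates 1 to 3. For Inmt the difference came to 4.69 ± 0.26 (SE, adjusted p = 8.55e-05); without adult replicate 2 it was 4.64 (adjusted p = 0.000836). Cyp4f15, a fatty acid hydroxylase, read 7289, 9010.4 and 7571 against 359, 522 and 115. Cyp4f15 differed by 4.57 ± 0.44 on the log2 scale (SE, adjusted p = 0.0012) and by 4.47 without adult replicate 2 (adjusted p = 0.00397). The 3 adult values of Inmt lay within a narrow band far above every newborn value, and those of Cyp4f15 did the same while the newborns spread. Cyp1a1, Cyp2j9, Cyp2s1, Cyp4v3 and Fmo5 made up the other rises; the single fall, Cyp51, belongs to sterol synthesis.

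Among the dehydrogenases, 4 of 32 rose and 2 fell (median 0.18; 3 and 3 without adult replicate 2, median 0.05). Aldh3a1, an aldehyde dehydrogenase of surface epithelia, read 2143, 2215 and 2124 in adults and 70, 37.3 and 65.5 in newborns. Aldh3a1 had a log2 difference of 4.39 ± 0.34 (SE, adjusted p = 0.000688), or 4.37 without adult replicate 2 (adjusted p = 0.00198). The related Aldh1a1, which makes retinoic acid, rose by 1.52 ± 0.24 (SE, adjusted p = 0.0074), whereas Aldh1a7, a close relative, fell by 1.01 ± 0.19 (adjusted p = 0.0146); near-identical copies can share probe signal, so this pair is uncertain. Of glutathione transferases and genes of glutathione supply, 6 of 31 rose and 1, Gpx7, fell (median 0.53; 5 and 1 without adult replicate 2). Mgst2, a membrane-bound transferase, read 5819, 14581 and 6372 against 469, 1013 and 627, highest in adult replicate 2. For Mgst2 the difference came to 3.51 ± 0.42 (SE, adjusted p = 0.00232); without adult replicate 2 it was 3.09 (adjusted p = 0.0041). Gstm1, a cytosolic transferase, read 25937, 43429.6 and 29375 against 8853, 9423 and 6573, and 3 of 3 other probe sets had the same sign. Gstm1 differed by 1.97 ± 0.26 on the log2 scale (SE, adjusted p = 0.00322) and by 1.75 without adult replicate 2 (adjusted p = 0.0049). The other rises were Gsta2, Gstm4, Gsto2 and Mgst1. Of the conjugating enzymes and esterases, 5 of 16 rose and 0 fell (median 0.63), and all 5 were also called without adult replicate 2.

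Aox1, an aldehyde oxidase, read 5367, 6093 and 3989.7 in adults and 627, 406 and 578 in newborns. Aox1 had a log2 difference of 3.15 ± 0.30 (SE, adjusted p = 0.0012), or 3.02 without adult replicate 2 (adjusted p = 0.00298). Ugt2b34, a glucuronosyltransferase, read 8011, 5569 and 5339 against 826, 1138 and 1447. For Ugt2b34 the difference came to 2.43 ± 0.31 (SE, adjusted p = 0.00279); without adult replicate 2 it was 2.51 (adjusted p = 0.00667). The epoxide hydrolases Ephx1 and Ephx2 rose by 1.94 ± 0.38 and 2.02 ± 0.37 (SE; adjusted p = 0.0166 and 0.0122), and the quinone reductase Nqo1 by 1.24 ± 0.26 (adjusted p = 0.023). For Aox1, Ugt2b34, Ephx1, Ephx2 and Nqo1 every adult value lay above every newborn value. A pair of P450 genes depended on adult replicate 2. Cyp2e1, which oxidises ethanol and acetone, read 3674, 430.3 and 2440.4 against 242, 179 and 353, and Cyp2f2 2739, 516 and 2688 against 575, 883 and 635. The value of adult replicate 2 lay just above the newborns for Cyp2e1 and below all of them for Cyp2f2. With all 6 arrays neither was called (log2 differences 2.46 and 1.15, adjusted p = 0.0589 and 0.272), and without that array both were (3.35 and 1.91, adjusted p = 0.00359 and 0.0122). Adult replicates 1 and 3 were also the arrays that carried accessory gland transcripts, and the part of that tissue in Cyp2e1 and Cyp2f2 was not tested.

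Fat handling moved with fewer genes. Of 37 genes of fatty acid oxidation and the peroxisome, 3 rose and 0 fell (median 0.21; 5 and 1 without adult replicate 2). Acaa1b, a peroxisomal thiolase, read 31059, 67862 and 34714 in adults and 2369.8, 1218 and 1459 in newborns, with adult replicate 2 the highest. Acaa1b differed by 4.65 ± 0.36 on the log2 scale (SE, adjusted p = 0.000688) and by 4.30 without adult replicate 2 (adjusted p = 0.00156). Ppargc1a, a coactivator of mitochondrial genes, rose by 2.00 ± 0.36 (SE, adjusted p = 0.0117), and 4 of 4 other probe sets had the same sign. In the respiratory chain and citrate cycle list 1 of 76 rose and 3 fell (median -0.26; 1 and 16 without adult replicate 2, 1 and 1 with median centring). Of the adipocyte and lipid storage genes, 6 of 27 rose and 1 fell (median 0.49), and the counts were 6 and 1 without adult replicate 2 (median 0.29) but 3 and 0 with median centring. Adipoq, the adipocyte hormone adiponectin, read 1167, 466 and 1231 against 51.6, 2.28 and 30, with adult replicate 2 the lowest adult. Adipoq had a log2 difference of 3.65 ± 0.51 (SE, adjusted p = 0.00461), or 4.07 without adult replicate 2 (adjusted p = 0.0054). Car3, a carbonic anhydrase abundant in fat and muscle, read 45651, 64640.2 and 46945 against 13559, 17422 and 16538. For Car3 the difference came to 1.71 ± 0.21 (SE, adjusted p = 0.00245); without adult replicate 2 it was 1.55 (adjusted p = 0.00283). Fabp4, a fatty acid-binding protein, went the other way, with a log2 difference of -0.74 ± 0.18 (SE, adjusted p = 0.0345). Without adult replicate 2 the difference of Fabp4 was -0.72 (adjusted p = 0.0256). The summed intensity of all 37 adipocyte markers was 278121 to 285739 in adults and 214323 to 226438 in newborns, with Orm1 below 49 on every array; the part of fat cells in the metabolic rises was not tested.

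Transporters of the ATP-binding cassette family rose without a fall. Of 26 tested, 7 rose and 0 fell (26.9% against 3.98% of all genes; median 0.18), and the same 7 were called without adult replicate 2: Abca1, Abca8a, Abca9, Abcb1a, Abcc4, Abcc9 and Abcd4. Abca1, which exports cholesterol from cells, read 21617, 22797 and 21279.8 in adults and 5978, 4176 and 4213 in newborns. Abca1 differed by 2.20 ± 0.23 on the log2 scale (SE, adjusted p = 0.00134) and by 2.17 without adult replicate 2 (adjusted p = 0.00307). Abca8a read 13642, 10011 and 12474 against 3482, 4149 and 1769.6, and Abcc4, an exporter of cyclic nucleotides and organic anions, 13329, 16506 and 13114 against 7435, 7647 and 6092. Their differences were 2.00 ± 0.33 and 1.01 ± 0.22 (SE; adjusted p = 0.00926 and 0.0251). Adults and newborns stayed apart for Abca1, Abca8a and Abcc4. With median centring 4 of the 26 transporters were called higher. By comparison, the solute carrier family, with 224 tested genes, had 11 rises and 7 falls (median 0.03; 6 and 4 with median centring), near the share of all genes. Slc14a1, the urea transporter of urothelium and red cells, was among the rises, with 10058, 7317 and 11069 against 2214, 3759.9 and 4399. Slc14a1 had a log2 difference of 1.48 ± 0.31 (SE, adjusted p = 0.0231), or 1.65 without adult replicate 2 (adjusted p = 0.0218). Of 12 genes of water, urea and sodium transport, 1 rose and 1 fell, but 0 and 0 with median centring. With that centring and without adult replicate 2, 1 rose and 0 fell.

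Several genes on the lists of smooth muscle excitability and relaxation were higher in adults. Of 14 tested potassium channel genes of the detrusor, 4 rose and 1 fell (median 0.81; 5 and 1 without adult replicate 2). Kcnj8 and Abcc9 encode the pore and the sulphonylurea receptor of the ATP-sensitive channel of smooth muscle and pericytes. Kcnj8 read 3844, 3699.6 and 4054 in adults and 2272, 1474 and 1605 in newborns. For Kcnj8 the difference came to 1.12 ± 0.27 (SE, adjusted p = 0.0382); without adult replicate 2 it was 1.15 (adjusted p = 0.0471). Abcc9 read 11362, 9222 and 11124 against 6054, 3408 and 4586. Abcc9 differed by 1.20 ± 0.27 on the log2 scale (SE, adjusted p = 0.0285) and by 1.29 without adult replicate 2 (adjusted p = 0.0297). Both subunits thus rose, each by a little over 1 log2 unit. Of the voltage-gated channels, Kcna1 read 4737, 1917 and 4852 against 117, 678 and 411, and Kcna2 2371, 743 and 2380.0 against 115, 429 and 189. Kcna1 had a log2 difference of 3.23 ± 0.57 (SE, adjusted p = 0.0111), or 3.67 without adult replicate 2 (adjusted p = 0.0116). For Kcna2 the difference came to 2.66 ± 0.55 (SE, adjusted p = 0.0207); without adult replicate 2 it was 3.19 (adjusted p = 0.00995). Adult replicate 2 had the lowest adult value of both, still above the newborns. Nerves share each RNA sample, and the part of nerve in the rises of Kcna1 and Kcna2 was not tested. The related Kcna5 went the other way, from 2517, 1758 and 2181 in newborns to 225, 319 and 539 in adults. Kcna5 differed by -2.48 ± 0.36 on the log2 scale (SE, adjusted p = 0.00535) and by -2.44 without adult replicate 2 (adjusted p = 0.0124). Kcnd2, another voltage-gated channel, fell by 2.83 ± 0.57 (SE, adjusted p = 0.0181), to 8.24, 2.69 and 111. With median centring 2 of the 14 were called higher.

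Of 19 genes of nitric oxide and cyclic nucleotide relaxation, 3 rose and 0 fell (median -0.01): Pde5a, Pde3b and Adcy5. Pde5a, the cyclic GMP phosphodiesterase that sildenafil blocks, read 42489.6, 38053 and 44909 in adults and 22955, 19044 and 15636 in newborns. Pde5a had a log2 difference of 1.13 ± 0.20 (SE, adjusted p = 0.0112), or 1.20 without adult replicate 2 (adjusted p = 0.0108). Pde3b, which degrades cyclic AMP, read 18355, 19744 and 15396 against 9111, 6968 and 6572. For Pde3b the difference came to 1.24 ± 0.23 (SE, adjusted p = 0.0122); without adult replicate 2 it was 1.16 (adjusted p = 0.0203). Mrvi1, the partner through which cyclic GMP kinase restrains calcium release, read 27020.0, 29667 and 27391 against 12972, 9035 and 7784. Mrvi1 differed by 1.52 ± 0.23 on the log2 scale (SE, adjusted p = 0.00649) and by 1.48 without adult replicate 2 (adjusted p = 0.0122). Rgs2, which shortens signals of G protein-coupled receptors, read 48545, 51528 and 50023 against 23051, 11729 and 18098. Rgs2 had a log2 difference of 1.56 ± 0.25 (SE, adjusted p = 0.00775), or 1.53 without adult replicate 2 (adjusted p = 0.0153). In each of these 4 genes the 3 adult values lay close together and above the newborns.

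Of 29 contractile genes of smooth muscle, 2 rose (Mrvi1 and Ldb3) and 1 fell (Cnn2), with a median of -0.12. These shares were 6.9% higher and 3.45% lower, beside 3.98% and 4.87% of all genes tested. Ldb3, a protein that anchors actin filaments, read 12975, 8465 and 9668 against 4422, 2177 and 1202. For Ldb3 the difference came to 2.15 ± 0.43 (SE, adjusted p = 0.0183); without adult replicate 2 it was 2.28 (adjusted p = 0.0302). Pln, which restrains the calcium pump of the sarcoplasmic reticulum, rose by 1.44 ± 0.35 (SE, adjusted p = 0.0394). Without adult replicate 2, 4 of the 29 contractile genes fell, among them Actg2 at -0.68 (adjusted p = 0.0215), where all 6 arrays gave -0.33 (adjusted p = 0.536).

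**Figure D2:**
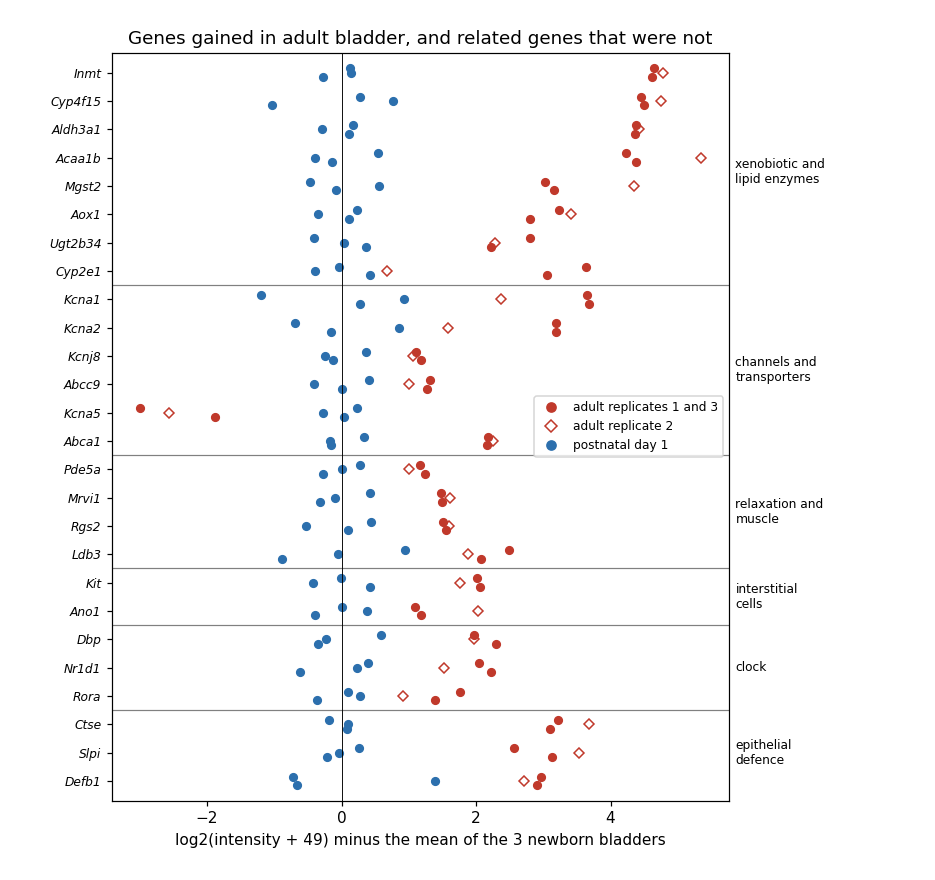
Each point is 1 array: log2(intensity + 49) of a gene minus the mean of the 3 newborn bladders, with adult replicate 2 as an open diamond. Adult points lie right of all newborn points except for Kcna5, whose adult points lie left. For Cyp2e1, adult replicate 2 lies just right of the newborns.

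Genes of fibroblasts and interstitial cells moved in both directions, 11 with a positive and 17 with a negative difference. Of 28 tested genes of fibroblasts and interstitial cells, 4 rose (Kit, Ano1, Pi16 and Entpd2) and 2 fell (median -0.10); without adult replicate 2 the same 4 rose and 4 fell, and with that array left out and median centring 2 rose and 2 fell. Kit, the receptor of stem cell factor, which marks pacemaker-like interstitial cells and mast cells, read 3078, 2586 and 3169 in adults and 726, 529.5 and 992 in newborns. Kit differed by 1.94 ± 0.31 on the log2 scale (SE, adjusted p = 0.00776) and by 2.03 without adult replicate 2 (adjusted p = 0.013). Ano1, a calcium-activated chloride channel, read 19261, 36961 and 20401 against 9064, 11747 and 6855, with adult replicate 2 the highest. Ano1 had a log2 difference of 1.43 ± 0.31 (SE, adjusted p = 0.0238), or 1.13 without adult replicate 2 (adjusted p = 0.0312). Beside the rise of Kit, 1 of 7 tested markers of lymphocytes and mast cells rose (2 without adult replicate 2), and Mcpt4 was below 49 on every array. The summed intensity of all 25 was 5664 to 8246 in adults and 3863 to 6501 in newborns; its part in the rise of Kit was not tested.

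For the lists of signals between epithelium and stroma, shares called stand beside 3.98% higher and 4.87% lower of all genes tested. The shares higher and lower were 8.7% and 8.7% for FGF and EGF genes, and 4% and 4% for Wnt ligands and receptors. They were 0% and 9.52% for Wnt inhibitors and targets, and 11.5% and 0% for PDGF and related genes. For BMP and TGF-beta genes they were 4.65% and 2.33%, and for hedgehog genes 0% and 0%. Among 23 FGF and EGF family genes and their feedback regulators, Fgf1 and Fgf7 rose while Spry1 and Dusp6, regulators that FGF signals switch on, fell. Fgf7, a stromal growth factor for epithelia, read 4380.2, 3226 and 4257 in adults and 1863, 1439.5 and 963 in newborns. For Fgf7 the difference came to 1.48 ± 0.31 (SE, adjusted p = 0.0233); without adult replicate 2 it was 1.62 (adjusted p = 0.0259). Fgf1 rose by 2.38 ± 0.35 (SE, adjusted p = 0.00522). Dusp6, a phosphatase of ERK kinases, read 6286, 5084 and 4097 against 12201, 14667 and 14389. Dusp6 differed by -1.42 ± 0.24 on the log2 scale (SE, adjusted p = 0.00961) and by -1.42 without adult replicate 2 (adjusted p = 0.0148). Spry1 fell by 1.31 ± 0.27 (adjusted p = 0.0212). Dusp9, another such phosphatase, fell by 3.03 ± 0.48 (adjusted p = 0.00736). The called ligands and the called feedback genes of this list moved in opposite directions; with median centring 1 gene of the list was called in each direction.

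Of 25 Wnt ligands and receptors, Wnt5a rose and Wnt10a fell, calls that were lost with median centring. Wnt5a, a ligand of the branch that does not use beta-catenin, read 10399.9, 7521 and 8322 in adults and 3313, 3636 and 3394 in newborns. Wnt5a had a log2 difference of 1.32 ± 0.24 (SE, adjusted p = 0.0117), or 1.42 without adult replicate 2 (adjusted p = 0.0124). Of 21 Wnt inhibitors and targets 2 fell, Rspo2, an amplifier of Wnt signals, and Apcdd1, an inhibitor. Rspo2 read 68.6, 59.4 and 61.6 against 373, 1253 and 1180.0. For Rspo2 the difference came to -2.97 ± 0.51 (SE, adjusted p = 0.00988); without adult replicate 2 it was -2.94 (adjusted p = 0.0206). Apcdd1 fell by 1.42 ± 0.25 (SE, adjusted p = 0.011), with 4 of 4 other probe sets of the same sign. Of 26 PDGF, VEGF, angiopoietin and endothelin genes and their relatives, Pdgfd, Kit and Met rose (1 rise with median centring). Pdgfd, a ligand for the PDGF receptor beta, read 12844, 7499 and 11091 against 4214, 4524 and 2777. Pdgfd differed by 1.43 ± 0.30 on the log2 scale (SE, adjusted p = 0.0209) and by 1.66 without adult replicate 2 (adjusted p = 0.0136). In the BMP and TGF-beta list, 2 of 43 rose and 1 fell (1 and 2 without adult replicate 2, 1 and 1 with median centring); Bmp2 was called with all arrays (1.12, adjusted p = 0.0498) but not without adult replicate 2 (0.89, adjusted p = 0.0776). No member of the 15 tested hedgehog genes was called by limma with or without adult replicate 2 (median -0.29), and 3 of them had an unadjusted p under 0.05.

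Of 19 tested transcription factors of the urothelium, 3 rose and 0 fell (15.8% against 3.98% of all genes; median 0.31; 4 and 0 without adult replicate 2, median 0.14; 2 and 0 with median centring): Trp63, Tbx3 and Irf1. Trp63, the p53 relative that maintains basal epithelial cells, read 27480.3, 20957 and 29511 in adults and 13218, 14196 and 11366 in newborns. Trp63 had a log2 difference of 1.00 ± 0.21 (SE, adjusted p = 0.0236), or 1.14 without adult replicate 2 (adjusted p = 0.00988). Tbx3 read 10364, 11105 and 10561 against 5568, 4108 and 3922. For Tbx3 the difference came to 1.24 ± 0.23 (SE, adjusted p = 0.0143); without adult replicate 2 it was 1.22 (adjusted p = 0.0232). Neither factor had overlapping groups. Beside the rise of Irf1, an interferon regulatory factor, 14 of 40 MHC and interferon genes rose (15 without adult replicate 2), and their part was not tested. Ctse, an aspartic protease of surface epithelia, read 25187, 34645 and 23169 against 2329.8, 2849.8 and 2818. Ctse differed by 3.34 ± 0.24 on the log2 scale (SE, adjusted p = 0.000688) and by 3.16 without adult replicate 2 (adjusted p = 0.00153). Slpi, a secreted inhibitor of neutrophil proteases, read 2680.0, 5249.7 and 3984 against 502, 397 and 344. Slpi had a log2 difference of 3.08 ± 0.33 (SE, adjusted p = 0.00162), or 2.85 without adult replicate 2 (adjusted p = 0.00405). Defb1, an antimicrobial beta-defensin of the urinary tract, read 11759.6, 9900.0 and 11290.1 against 866, 3919 and 911, with newborn replicate 2 above the other newborns. For Defb1 the difference came to 2.86 ± 0.51 (SE, adjusted p = 0.0117); without adult replicate 2 it was 2.93 (adjusted p = 0.0267). Beside the rises of Ctse, Slpi and Defb1, 8 of 33 macrophage and monocyte markers rose (6 without adult replicate 2), with summed intensities of 85935 to 151680.0 in adults and 37329 to 57052 in newborns, and their part was not tested. Slpi also stands on the mesothelium list, of which 4 of 16 rose and 0 fell with all arrays, and 2 rose and 1 fell without adult replicate 2.

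The circadian clock list had 4 rises and 0 falls of 20 tested (median 0.47; 6 and 0 without adult replicate 2), and the time of day of sampling is not given in the sources used here. Dbp, a clock output factor, read 5780.3, 5787 and 7278 in adults and 2189.5, 1212 and 1113 in newborns. Dbp differed by 2.08 ± 0.32 on the log2 scale (SE, adjusted p = 0.0064) and by 2.14 without adult replicate 2 (adjusted p = 0.0132). Nr1d1, a repressor within the clock loop, read 849, 576 and 960.3 against 236, 206 and 92.3. Nr1d1 had a log2 difference of 1.93 ± 0.42 (SE, adjusted p = 0.0244), or 2.13 without adult replicate 2 (adjusted p = 0.0271). Clock and Rora rose by 1.45 ± 0.36 and 1.36 ± 0.32 (SE; adjusted p = 0.0406 and 0.0338). Adult replicate 2 was the lowest adult for Nr1d1, Clock and Rora, and with median centring 2 of the 20 were called higher.

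Among the largest rises outside these lists, Fbxo32, a muscle ubiquitin ligase, read 34408, 32303 and 30542 in adults and 6272, 2039 and 1769 in newborns. For Fbxo32 the difference came to 3.49 ± 0.42 (SE, adjusted p = 0.00245); without adult replicate 2 it was 3.49 (adjusted p = 0.00869). Ttll7, a tubulin polyglutamylase, read 18368, 14845 and 20180.3 against 2042, 1186 and 1657. Ttll7 differed by 3.43 ± 0.28 on the log2 scale (SE, adjusted p = 0.000804) and by 3.56 without adult replicate 2 (adjusted p = 0.00156). Trim36 read 6241, 3872 and 4283 against 416, 215 and 498 and Lpar3, a lysophosphatidic acid receptor, 1446, 1127 and 1094 against 259, 16.9 and 7.33. Their differences were 3.54 ± 0.36 and 3.59 ± 0.63 (SE; adjusted p = 0.00134 and 0.0108). Hpgd, which inactivates prostaglandins, read 18376, 11478 and 14742 against 4938, 2216 and 2124. Hpgd had a log2 difference of 2.33 ± 0.36 (SE, adjusted p = 0.0065), or 2.51 without adult replicate 2 (adjusted p = 0.0107). Hpgd was the 1 gene called of 13 of prostaglandin synthesis and reception. No gene of these 5 had overlapping groups.

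Several genes of sterol synthesis were lower in adults. Cells build cholesterol from acetyl-CoA by a chain of enzymes whose genes are switched on together when membrane sterol is low. Of 23 tested genes of the pathway and its control, 8 fell and 0 rose (34.8% against 4.87% of all genes; median -0.88), and without adult replicate 2 6 fell. The called enzymes ran from the isoprene unit to cholesterol. Idi1 isomerises the isoprene unit, Fdft1 joins farnesyl units to squalene and Sqle oxidises squalene. Cyp51 removes a methyl group from lanosterol, Hsd17b7 reduces a ketone and Dhcr7 makes cholesterol itself. Insig1, the sterol sensor that holds back the pathway's activators, read 3638, 3162 and 3489 in adults and 11645, 16499 and 12579 in newborns. For Insig1 the difference came to -1.96 ± 0.24 (SE, adjusted p = 0.00244); without adult replicate 2 it was -1.90 (adjusted p = 0.00473). Dhcr7 read 880.1, 833 and 921 against 2902, 3811 and 2497. Dhcr7 differed by -1.73 ± 0.28 on the log2 scale (SE, adjusted p = 0.00835) and by -1.69 without adult replicate 2 (adjusted p = 0.0154). Idi1 read 4208, 2862 and 4572 against 9371, 16056 and 14893. Idi1 had a log2 difference of -1.77 ± 0.30 (SE, adjusted p = 0.00922), or -1.57 without adult replicate 2 (adjusted p = 0.0158). In these 3 genes the adult values were alike and the newborns clearly above them.

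Fdft1 read 3419, 4595 and 4288 in adults and 9139, 11095 and 11136 in newborns. For Fdft1 the difference came to -1.35 ± 0.24 (SE, adjusted p = 0.0109); without adult replicate 2 it was -1.43 (adjusted p = 0.0116). Cyp51 read 1314, 834 and 997 against 2668, 7849.8 and 5476, with newborn replicate 1 the lowest newborn. Cyp51 differed by -2.19 ± 0.40 on the log2 scale (SE, adjusted p = 0.0131) and by -2.04 without adult replicate 2 (adjusted p = 0.0316). Sqle read 7943, 5039 and 6935 against 13941, 27692 and 19199. Sqle had a log2 difference of -1.57 ± 0.30 (SE, adjusted p = 0.0145), or -1.39 without adult replicate 2 (adjusted p = 0.0266). Hsd17b7 and the sterol carrier Stard4 fell, with log2 differences of -1.46 ± 0.36 and -1.36 ± 0.34 (SE; adjusted p = 0.039 and 0.0447), calls not held without adult replicate 2 (adjusted p = 0.0697 and 0.0716). Newborn replicate 1 was the lowest newborn for Idi1, Fdft1, Cyp51, Sqle, Hsd17b7 and Stard4 and still above all adults. For Hmgcs1, an early enzyme of the chain, the brightest probe set gave 38705, 58110.5 and 41183 against 56702, 47020.0 and 56425 with no call (log2 difference -0.23, adjusted p = 0.533), while 2 of its 4 other probe sets were called lower. With median centring 6 of the 23 were called lower, and 4 with centring and without adult replicate 2. The sterol exporter Abca1, described above, moved the opposite way.

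Several genes of amino acid supply and tRNA charging were lower in adults as well. Atf4 is the transcription factor that induces these genes when amino acids run short. Of 42 tested genes of aminoacyl-tRNA synthetases, amino acid and one-carbon synthesis and amino acid uptake, 10 fell and 0 rose (23.8%; median -0.55; 10 and 0 without adult replicate 2, of which 9 are the same genes). The list also holds Atf4 itself and Chac1, which are outside these classes, and both are among the 10. The binding motif of Atf4 with its C/EBP partners, TGATGNAA, was searched on both strands of the 250 bases before each gene's RefSeq start (GRCm38.p6), because the genes of this list that fell include its known targets. It occurred in 1134 of 32851 such promoters (3.452%). Counted by gene, it occurred in 1056 of the 27025 genes with a promoter entry (3.91%), in 6 of the 32 list genes with one, and in 3 of the 9 that fell and had one: Aars, Gars and Chac1. Their promoters are shown with the match in capitals, which in each case lies on the strand opposite to the gene, so it reads as the reverse complement; Aars is on the forward strand at chr8:111033592-111033841, Gars at chr6:55037751-55038000 and Chac1 at chr2:119350992-119351241. A match is a description of letters only.
Aars: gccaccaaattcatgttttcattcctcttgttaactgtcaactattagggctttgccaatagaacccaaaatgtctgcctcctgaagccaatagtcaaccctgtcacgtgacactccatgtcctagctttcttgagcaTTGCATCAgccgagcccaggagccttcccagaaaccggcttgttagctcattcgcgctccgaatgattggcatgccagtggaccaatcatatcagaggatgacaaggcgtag
Gars: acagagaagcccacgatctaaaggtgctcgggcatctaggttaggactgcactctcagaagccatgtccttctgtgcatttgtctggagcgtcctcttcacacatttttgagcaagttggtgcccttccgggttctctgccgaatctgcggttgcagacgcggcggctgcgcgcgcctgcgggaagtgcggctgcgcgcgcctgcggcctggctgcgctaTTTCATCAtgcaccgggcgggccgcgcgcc
Chac1: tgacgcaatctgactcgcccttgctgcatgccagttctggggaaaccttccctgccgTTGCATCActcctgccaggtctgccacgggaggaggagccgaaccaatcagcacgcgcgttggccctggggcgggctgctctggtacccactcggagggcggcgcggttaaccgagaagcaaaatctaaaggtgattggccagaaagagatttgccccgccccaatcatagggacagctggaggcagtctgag
For comparison, the sterol response motif TCACNCCAC, searched the same way, occurred in 346 promoters (1.053%), in 331 of all genes with an entry (1.22%), in 1 of the 19 sterol list genes with an entry and in 0 of the 5 that fell and had one, which says only that these letters are not in these windows.

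Mthfd2, a mitochondrial one-carbon enzyme, read 576, 976 and 925 in adults and 3046, 3559 and 5626 in newborns. For Mthfd2 the difference came to -2.22 ± 0.34 (SE, adjusted p = 0.0066); without adult replicate 2 it was -2.35 (adjusted p = 0.0109). Phgdh, the first enzyme of serine synthesis, read 588, 1164 and 727 against 2482, 4504 and 7582, and 3 of 3 other probe sets were called the same way. Phgdh differed by -2.40 ± 0.43 on the log2 scale (SE, adjusted p = 0.0119) and by -2.66 without adult replicate 2 (adjusted p = 0.0148). Slc7a5, an importer of large neutral amino acids, read 433, 622 and 431 against 2655, 3498 and 1613. Slc7a5 had a log2 difference of -2.23 ± 0.36 (SE, adjusted p = 0.00785), or -2.39 without adult replicate 2 (adjusted p = 0.0114). These 3 genes had every newborn value above every adult one. Slc7a1, the importer of arginine and lysine, read 7993, 6713 and 7886 against 14847, 19552 and 25607. For Slc7a1 the difference came to -1.37 ± 0.25 (SE, adjusted p = 0.012); without adult replicate 2 it was -1.29 (adjusted p = 0.0203). Atf4 itself read 6766, 9013 and 6994 against 14190.5, 17928 and 14859. Atf4 differed by -1.04 ± 0.22 on the log2 scale (SE, adjusted p = 0.0236) and by -1.17 without adult replicate 2 (adjusted p = 0.0132). Mthfd1l and Psat1 fell, with log2 differences of -2.13 ± 0.36 and -1.44 ± 0.32 (SE; adjusted p = 0.00992 and 0.0283). Of the 3 genes with the motif, Aars, which charges alanine to its tRNA, read 3677, 4115 and 3115 against 9241, 6504 and 11209 (-1.27 ± 0.27, adjusted p = 0.0247). Gars, the glycine enzyme, read 8377, 8335 and 9073 against 14904, 17768 and 13583 (-0.83 ± 0.21, adjusted p = 0.0428). Chac1, which degrades glutathione, read 279, 185 and 377 against 773, 730.4 and 1306 (-1.58 ± 0.39, adjusted p = 0.0407); it was the 1 of the 10 whose call did not hold without adult replicate 2 (adjusted p = 0.0631). With median centring 7 of the 42 were called lower, and 6 with centring and without adult replicate 2. Of 43 ribosomal proteins 1 fell and 0 rose (median -0.14), and without adult replicate 2 5 fell and 0 rose (median -0.38).

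Matrix genes fell in several lists. Of 22 basement membrane genes 7 fell and 0 rose (31.8%; median -0.77; 9 fell and 1 rose without adult replicate 2). The Fraser complex, which ties epithelium to mesenchyme during development and whose loss causes Fraser syndrome, fell in all 3 of its tested matrix members. Frem1 read 142, 72.4 and 387 in adults and 4208, 2718 and 2793 in newborns. Frem1 had a log2 difference of -3.90 ± 0.47 (SE, adjusted p = 0.00245), or -3.48 without adult replicate 2 (adjusted p = 0.00473). Frem2 read 2857, 2347 and 2391 against 13194, 6413 and 10791. For Frem2 the difference came to -1.92 ± 0.31 (SE, adjusted p = 0.00756); without adult replicate 2 it was -1.87 (adjusted p = 0.0161). Fras1 read 1162, 599 and 989.5 against 2248, 4989 and 3797. Fras1 differed by -1.92 ± 0.38 on the log2 scale (SE, adjusted p = 0.017) and by -1.66 without adult replicate 2 (adjusted p = 0.0333). Npnt, an integrin ligand that works with the complex in the kidney, read 924, 492 and 1261 against 3499.5, 3586 and 3647. Npnt had a log2 difference of -2.04 ± 0.35 (SE, adjusted p = 0.0105), or -1.68 without adult replicate 2 (adjusted p = 0.0123). Grip1, the adaptor that brings the complex to the cell surface, fell by 2.30 ± 0.48 (SE, adjusted p = 0.0207), to 11.5, 65.3 and 73. No adult value of these 5 genes reached the lowest newborn value. Lamb1, a laminin chain, and the nidogens Nid1 and Nid2, which link laminin to collagen, fell, with log2 differences of -1.30 ± 0.18, -1.01 ± 0.21 and -2.09 ± 0.32 (adjusted p = 0.00464, 0.0206 and 0.00642).

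Of 25 fibrillar and associated collagens, 8 fell and 0 rose (32%; median -0.80; 12 fell without adult replicate 2). Col1a1, a chain of type I collagen, read 5933, 11337 and 6921 in adults and 38897, 31708 and 23319 in newborns, with adult replicate 2 the highest adult. For Col1a1 the difference came to -1.98 ± 0.30 (SE, adjusted p = 0.00605); without adult replicate 2 it was -2.25 (adjusted p = 0.00298). Col5a1, which starts fibril assembly, read 6124, 10179.5 and 6434 against 36299.6, 28246 and 26596. Col5a1 differed by -2.02 ± 0.26 on the log2 scale (SE, adjusted p = 0.00279) and by -2.25 without adult replicate 2 (adjusted p = 0.00165). Col3a1, the other main fibril collagen of the bladder wall, read 62657, 102145 and 58683 against 95909.7, 79419.8 and 93449, and adult replicate 2 was the highest of all 6 arrays. It was called only without that array (-0.56, adjusted p = 0.0259; with all arrays -0.31, adjusted p = 0.449). Pcolce, an enhancer of collagen processing, behaved likewise, at -1.11 without adult replicate 2 (adjusted p = 0.0285) and -0.55 with it (adjusted p = 0.499), while the related Pcolce2 rose, from 7.95, 88.8 and 26 to 1308, 3863 and 1792. Pcolce2 had a log2 difference of 4.67 ± 0.51 (SE, adjusted p = 0.00165), or 4.24 without adult replicate 2 (adjusted p = 0.0054).

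Of 33 matricellular and adhesive glycoproteins, 9 fell and 1, Ecm1, rose (median -0.48; 10 and 2 without adult replicate 2, and 8 and 0 with median centring). Fbn2, the fibrillin of growing tissue, read 241, 85.7 and 265 in adults and 29047, 24562 and 25630.2 in newborns. For Fbn2 the difference came to -6.84 ± 0.36 (SE, adjusted p = 7.05e-05); without adult replicate 2 it was -6.45 (adjusted p = 5.28e-05). Eln, elastin, read 1898, 3553 and 1971 against 11769, 9452 and 10041. Eln differed by -2.11 ± 0.30 on the log2 scale (SE, adjusted p = 0.00461) and by -2.39 without adult replicate 2 (adjusted p = 0.00211). Emilin3 read 16.7, 287 and 149 against 2293, 2438 and 2689.9. Emilin3 had a log2 difference of -3.94 ± 0.55 (SE, adjusted p = 0.00433), or -4.46 without adult replicate 2 (adjusted p = 0.00308). Ccn2 and Ccn4, growth factor-like matrix proteins, fell, with log2 differences of -2.41 ± 0.52 and -2.71 ± 0.56 (SE; adjusted p = 0.0237 and 0.0198), with adult replicate 2 at 18824 and 906 closer to the newborns than the other adults were. Of 34 matrix proteases and inhibitors, 7 fell and 1 rose (median -0.29; 8 and 3 without adult replicate 2). Adamts20, a protease that acts on versican, read 60.3, 126 and 413 against 8197, 5982 and 3841. For Adamts20 the difference came to -4.81 ± 0.53 (SE, adjusted p = 0.00165); without adult replicate 2 it was -4.68 (adjusted p = 0.00574). Adam19, Adamts12 and Mmp7 fell, with log2 differences of -1.94, -2.23 and -2.33 (adjusted p = 0.00754, 0.00973 and 0.0121).

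Of 27 small leucine-rich proteins, large proteoglycans and hyaluronan genes, 5 fell and 2 rose (median -0.50; 6 and 1 without adult replicate 2). Aspn, asporin, read 638, 372 and 674 in adults and 2837, 2444 and 2278 in newborns. Aspn differed by -2.11 ± 0.32 on the log2 scale (SE, adjusted p = 0.00639) and by -1.86 without adult replicate 2 (adjusted p = 0.00964). Gpc3, a cell surface glypican that restrains growth, read 827, 703 and 612 against 3438, 3016 and 2273. Gpc3 had a log2 difference of -1.94 ± 0.29 (SE, adjusted p = 0.00639), or -1.94 without adult replicate 2 (adjusted p = 0.0122). Vcan, versican, fell by 1.03 ± 0.24 (SE, adjusted p = 0.0342). Prelp, a small leucine-rich protein of mature connective tissue, went the other way, with 4689, 6604 and 5453 against 1223, 375 and 646. For Prelp the difference came to 2.95 ± 0.40 (SE, adjusted p = 0.00398); without adult replicate 2 it was 2.82 (adjusted p = 0.0124). Cthrc1, a secreted collagen-related protein, fell from 8073, 6754 and 3846 to 121, 498 and 642. Cthrc1 differed by -3.90 ± 0.53 on the log2 scale (SE, adjusted p = 0.00385) and by -4.13 without adult replicate 2 (adjusted p = 0.00891). Dcn, decorin, read 36338, 75919 and 36418 against 28739, 25168 and 30928 and was not called (0.72, adjusted p = 0.163).

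Several imprinted genes of fetal growth were lower in adults. Imprinted genes, expressed from 1 parental copy, include many growth regulators; 9 of 19 fell and 1, Impact, rose (47.4%; median -1.27; 10 and 1 without adult replicate 2). Igf2, the fetal growth factor, read 458, 1375 and 712 in adults and 13991, 9014 and 14025 in newborns. Igf2 had a log2 difference of -3.89 ± 0.39 (SE, adjusted p = 0.00134), or -4.29 without adult replicate 2 (adjusted p = 0.00156). Cdkn1c, a cell cycle inhibitor, read 410.2, 733 and 445 against 7596, 5077 and 12274. For Cdkn1c the difference came to -3.80 ± 0.38 (SE, adjusted p = 0.00128); without adult replicate 2 it was -4.04 (adjusted p = 0.00211). Dlk1, a transmembrane Notch relative, read 55.5, 222 and 115 against 2786, 1759 and 2479. Dlk1 differed by -3.82 ± 0.42 on the log2 scale (SE, adjusted p = 0.00165) and by -4.17 without adult replicate 2 (adjusted p = 0.00191). Slc38a4, an amino acid importer, read 639.7, 389 and 1001 against 11153, 10765 and 6063. Slc38a4 had a log2 difference of -3.73 ± 0.39 (SE, adjusted p = 0.0014), or -3.41 without adult replicate 2 (adjusted p = 0.00283). Mest and Grb10 fell, with log2 differences of -2.87 ± 0.32 and -1.88 ± 0.19 (SE; adjusted p = 0.00183 and 0.00134). Igf2bp3, which binds Igf2 mRNA in fetal tissue, fell by 3.64 ± 0.32 (adjusted p = 0.000836), and 5 of 5 other probe sets were called the same way. In the list of insulin-like growth factors and their binding proteins 4 of 14 fell (5 without adult replicate 2, 2 with median centring): Igf2, Irs1, and Pappa and Pappa2, proteases that free the growth factor from its binding proteins. Pappa2 read 424, 294 and 139 against 2263, 2079 and 1319.9. For Pappa2 the difference came to -2.59 ± 0.42 (SE, adjusted p = 0.0078); without adult replicate 2 it was -2.66 (adjusted p = 0.0154). Agtr2, the fetal angiotensin receptor, read 348, 140.3 and 295 against 16103, 5847 and 6913. Agtr2 differed by -4.88 ± 0.45 on the log2 scale (SE, adjusted p = 0.000943) and by -4.56 without adult replicate 2 (adjusted p = 0.00224).

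**Figure D3:**
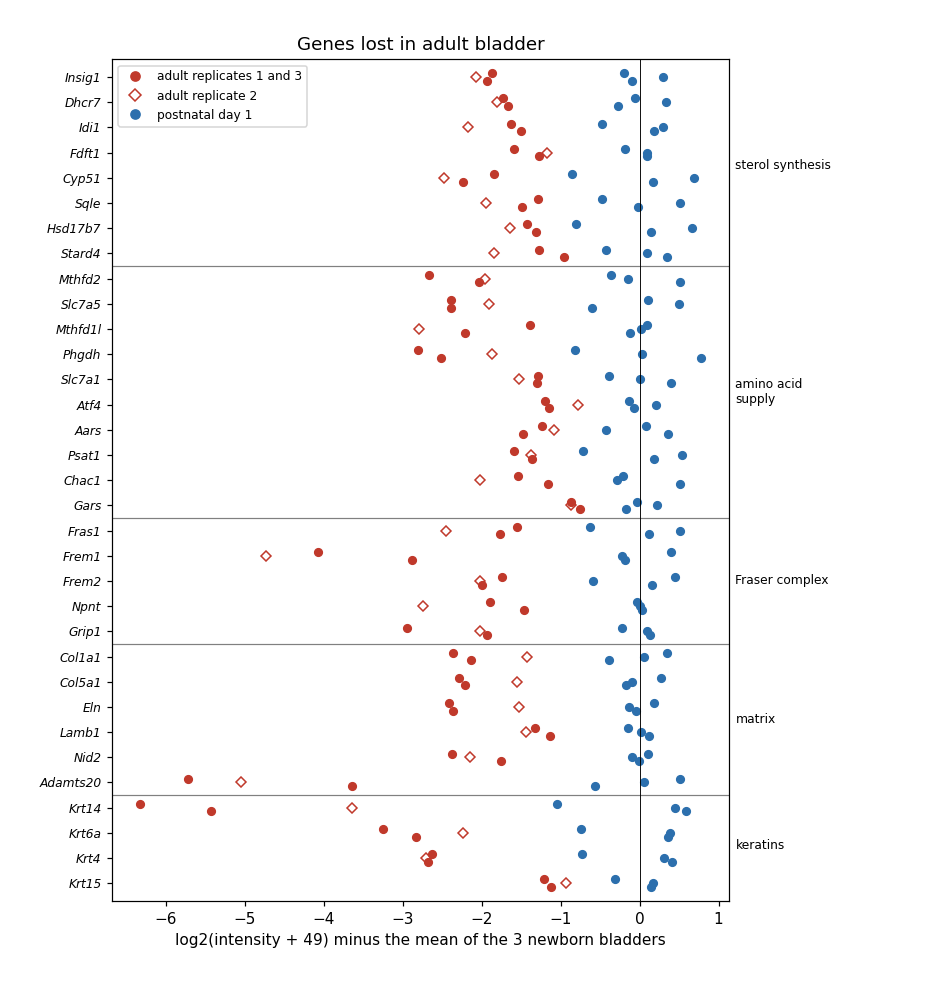
Each point is 1 array: log2(intensity + 49) of a gene minus the mean of the 3 newborn bladders, with adult replicate 2 as an open diamond. All adult points lie left of all newborn points of the same gene.

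Several keratins were lower in adults. Of 17 urothelial keratins and differentiation genes, 4 fell and 0 rose (Krt4, Krt14, Krt15 and Plaur; median -0.45; 6 and 0 without adult replicate 2). Krt14, a keratin of basal cells of stratified epithelia, read 13, 349.9 and 66.5 in adults and 2364, 6756 and 7431 in newborns. Krt14 had a log2 difference of -5.13 ± 0.68 (SE, adjusted p = 0.00369), or -5.88 without adult replicate 2 (adjusted p = 0.00207). Krt4 read 426, 403 and 412 against 1734, 3617 and 3877. For Krt4 the difference came to -2.67 ± 0.36 (SE, adjusted p = 0.00379); without adult replicate 2 it was -2.66 (adjusted p = 0.00992). Krt15 fell by 1.09 ± 0.21 (SE, adjusted p = 0.0161). Krt6a, on the epidermal list, fell by 2.77 ± 0.44 (adjusted p = 0.00761). Krt5, the partner of Krt14, read 7213, 10429 and 9319.9 against 6488, 9384 and 11748 and was not called (-0.01, adjusted p = 0.989). Of 18 tested epidermal markers 3 fell, and the summed intensity of all 34 was 137412 to 181811 in adults and 159365 to 203609 in newborns, with Krt2 and Sprr1b below 49 on every array; their part in the keratin falls was not tested. Of 6 uroplakin genes, 1 was called, the relative Upk3bl, lower in adults (-1.47, adjusted p = 0.0433). Of 29 cadherins and protocadherins 4 fell and 0 rose (median -0.67). Cdh11, a cadherin of mesenchyme, read 4296, 2168 and 4265 against 13416, 12514 and 15249.9. Cdh11 differed by -1.99 ± 0.30 on the log2 scale (SE, adjusted p = 0.0065) and by -1.66 without adult replicate 2 (adjusted p = 0.00473).

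Of 42 mesenchymal transcription factors, 2 rose and 3 fell (median 0.05; 3 and 3 without adult replicate 2, 1 and 2 with median centring). Tcf21, which marks fibroblast precursors, read 1263, 1305 and 991 in adults and 4694, 3457 and 5827 in newborns. Tcf21 had a log2 difference of -1.91 ± 0.29 (SE, adjusted p = 0.00674), or -1.98 without adult replicate 2 (adjusted p = 0.0116). Snai2 fell by 1.34 ± 0.32 (SE, adjusted p = 0.0357). Sox11, a factor of immature cells and neurons, fell by 2.47 ± 0.48 (adjusted p = 0.0167), with 3 of 3 other probe sets called the same way. Of 15 Hox genes that passed the filter, Hoxd10 rose and 0 fell (2 rises without adult replicate 2). Of 62 chromatin modifiers 9 fell and 2 rose (median -0.32), without adult replicate 2 6 fell and 4 rose, and with median centring 5 fell and 2 rose. Ezh2 and Ezh1 are the alternative catalytic subunits of Polycomb complex 2 in dividing and resting cells. Ezh2 read 2798, 2099 and 2707 against 6132, 7007 and 4705. For Ezh2 the difference came to -1.21 ± 0.27 (SE, adjusted p = 0.0275); without adult replicate 2 it was -1.08 (adjusted p = 0.0413). Ezh1 read 2557, 2564 and 2496 against 1086, 913 and 986. Ezh1 differed by 1.31 ± 0.26 on the log2 scale (SE, adjusted p = 0.0176) and by 1.31 without adult replicate 2 (adjusted p = 0.0267). Cbx7, a reader of Polycomb complex 1, rose by 1.68 ± 0.34 (adjusted p = 0.0195). Dnmt1, the maintenance DNA methyltransferase, fell by 1.73 ± 0.26 (adjusted p = 0.0065). Hmga2, a fetal chromatin protein, fell by 2.56 ± 0.56 (adjusted p = 0.0252). Dnmt1, Uhrf1, Hells and Hmgb2 also stand on the cell division lists, whose fall moves with this one and whose part in it was not tested.

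Of 39 tubulins and kinesins, 10 fell and 2 rose (median -0.73; 14 and 2 without adult replicate 2); 6 of the falls are kinesins of the mitotic spindle and 4 are beta-tubulins. Tubb6 read 6775, 5727 and 6342 in adults and 19235, 18793 and 19961 in newborns. Tubb6 had a log2 difference of -1.62 ± 0.20 (SE, adjusted p = 0.00259), or -1.55 without adult replicate 2 (adjusted p = 0.0034). Its other probe set had the opposite sign. Tubb2b, a beta-tubulin of neurons, read 885, 337 and 1255 against 5853, 10953 and 14797, with adult replicate 2 the lowest. For Tubb2b the difference came to -3.67 ± 0.49 (SE, adjusted p = 0.00375); without adult replicate 2 it was -3.16 (adjusted p = 0.00553). Tubb2a and Tubb5 fell, with log2 differences of -1.38 ± 0.21 and -1.21 ± 0.22 (SE; adjusted p = 0.00653 and 0.0117). Of 28 genes of glycolysis and lactate, 5 fell and 1 rose (median -0.36; 6 and 1 without adult replicate 2, median -0.21). Ldhb, the lactate dehydrogenase subunit of oxidative tissue, read 28991, 43054 and 31848 against 14389.5, 13274 and 13835. Ldhb differed by 1.30 ± 0.21 on the log2 scale (SE, adjusted p = 0.00765) and by 1.13 without adult replicate 2 (adjusted p = 0.0068). Ldha, its glycolytic counterpart, read 13059, 20949 and 16766 against 39291, 23332 and 33978 and was called lower only without adult replicate 2 (-1.09, adjusted p = 0.0326; with all arrays -0.92, adjusted p = 0.0628). Aldoc and Pygl fell, with log2 differences of -1.80 ± 0.36 and -2.12 ± 0.47 (adjusted p = 0.0177 and 0.0283). Ezh1 with Ezh2, Ldhb with Ldha, Kcna1 with Kcna5 and Aldh1a1 with Aldh1a7 were set side by side after their values were seen.

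Skeletal muscle, cardiac and neuronal marker lists had falls, while limma called 0 of 5 erythroid, 0 of 8 pancreas and intestine and 0 of 2 kidney markers tested, of which 2, 3 and 0 had an unadjusted p under 0.05. Of 17 tested skeletal muscle markers, 8 fell and 0 rose (47.1%; median -1.78). Myh8, the perinatal skeletal myosin, read 105, 13.2 and 45.3 in adults and 3572, 7442 and 8903 in newborns. Myh8 had a log2 difference of -6.01 ± 0.46 (SE, adjusted p = 0.000688), or -5.69 without adult replicate 2 (adjusted p = 0.00156). The summed intensity of all 39 skeletal markers was 44985 to 55694 in adults and 115973 to 159074 in newborns, with Chrnd below 49 on every array; for Cav3, the muscle caveolin, which fell by 2.35 ± 0.32 (SE, adjusted p = 0.00403), and for the glycolytic genes, the part of skeletal muscle was not tested. Of 11 cardiac muscle markers 4 fell and 1 rose (6 and 1 without adult replicate 2); Actc1, also a muscle actin of the fetus, read 17969.7, 10749 and 20442 against 64797, 46570.4 and 67930.1. For Actc1 the difference came to -1.90 ± 0.27 (SE, adjusted p = 0.0048); without adult replicate 2 it was -1.62 (adjusted p = 0.00388). Of 37 neuronal markers 9 fell and 0 rose (24.3%; median -1.31; 10 without adult replicate 2, median -0.82; 6 with median centring). Phox2a, a transcription factor of autonomic neurons, read 70, 94.9 and 149 against 749, 924 and 485. Phox2a differed by -2.31 ± 0.42 on the log2 scale (SE, adjusted p = 0.0122) and by -2.28 without adult replicate 2 (adjusted p = 0.023). Stmn2, a growth protein of axons, read 2098, 408 and 2071 against 2952, 4832 and 2563, with adult replicate 2 far below the rest, and was not called (-1.40, adjusted p = 0.177). None of 16 Schwann cell markers was called by limma with or without adult replicate 2 (median -0.02; 5 at an unadjusted p under 0.05).

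**Figure D4:**
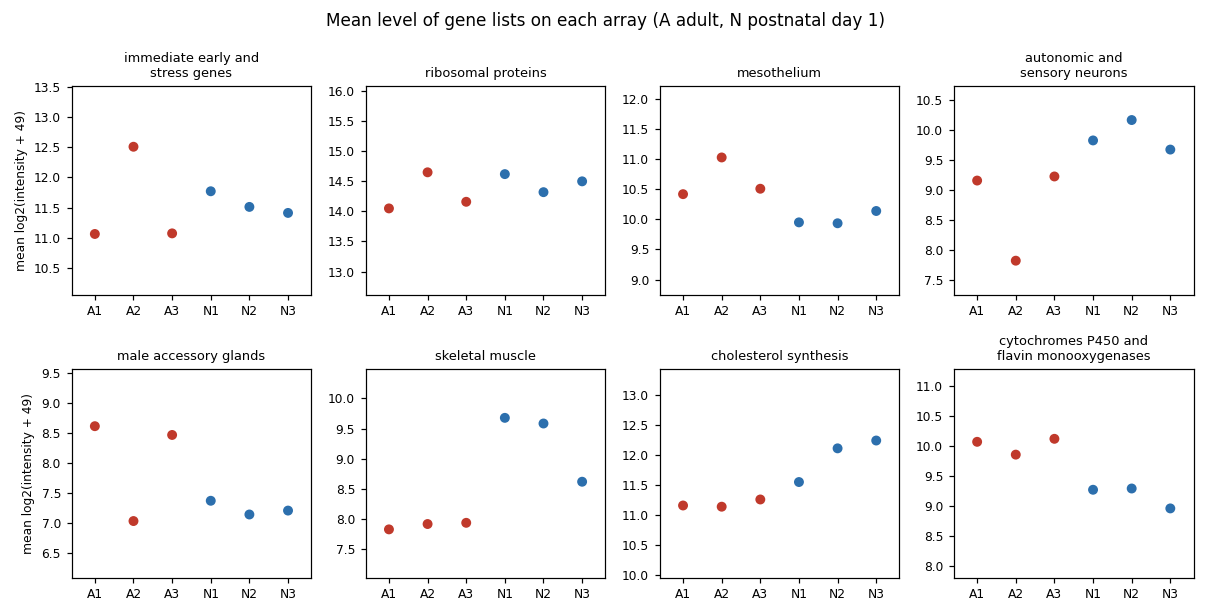
Each panel shows the mean log2(intensity + 49) of the members of 1 gene list on each array, adults in red (A1 to A3) and newborns in blue (N1 to N3); all panels span the same number of log2 units. Adult replicate 2 lies above the other adults for immediate early genes (12.51 against 11.06 and 11.07) and below them for neurons (7.82 against 9.15 and 9.22) and accessory glands (7.03 against 8.61 and 8.46), but beside them for skeletal muscle, sterol synthesis and P450 genes.

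Counts in several lists differed without adult replicate 2. The mean log2 level of 39 immediate early and stress genes was 12.51 in adult replicate 2, 11.06 and 11.07 in adult replicates 1 and 3, and 11.41 to 11.77 in newborns. Nr4a1, a receptor gene induced within minutes of a stimulus, read 766, 8066 and 519 in adults and 1658, 1504 and 2027 in newborns. With all arrays 1 of 35 tested members rose and 2 fell (median -0.11; 1 and 1 with median centring), and without that array 1 rose and 10 fell (median -0.68); when the arrays were also centred on their medians 1 rose and 3 fell. Hsph1, a heat shock protein, rose either way, with 19517, 25465 and 23653 against 4841, 7444 and 5217. Hsph1 had a log2 difference of 1.98 ± 0.24 (SE, adjusted p = 0.00247), or 1.90 without adult replicate 2 (adjusted p = 0.00582). The respiratory chain list went from 3 falls of 76 to 16 without adult replicate 2, and to 3 with that centring. Contractile genes went from 1 fall to 4 (2 with the centring), collagens from 8 to 12 and P450 genes from 7 rises to 10. Of the symbol families, zinc finger genes went from 5 rises of 288 to 11 and Tmem genes from 5 of 159 to 11 (8 and 7 with the centring). Of the 448 genes called only without adult replicate 2, 223 were higher and 225 lower; for 43 of the first and 43 of the second, adult replicates 1 and 3 lay at least 2-fold beyond adult replicate 2 and all newborns.

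**Figure D5:**
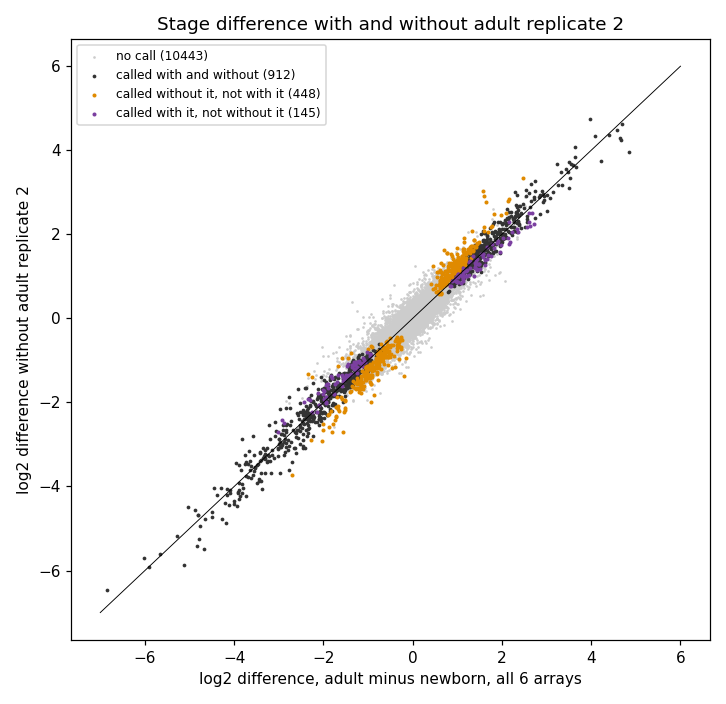
Each point is 1 gene: the log2 difference, adult minus newborn, with all 6 arrays (horizontal) and without adult replicate 2 (vertical), and the line marks equal values. Black points (912) were called both ways, orange (448) only without adult replicate 2 and purple (145) only with it; 0 genes were called in opposite directions.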

How the data were processed

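The authors deposited 1 table of intensity values from 1-colour Affymetrix MOE430 arrays. Per the submitters' processing notes GCOS was used, in a version not given, and the summary method is not given in the sources used here. RNA was amplified in 2 rounds, per the labels. The mean without the outer 2% was 1500.01 on every array, so the deposited intensity values had been scaled. Of 45101 probe sets, 64 controls were left out; 34945 name 1 gene, 932 several and 9160 none. Probe sets above their array's median on at least 3 of 6 arrays were tested with limma 3.58.1 (R 4.3.3; lmFit, eBayes with a trend) on log2(intensity + 49), 49 being the 20th percentile of all values, with Benjamini-Hochberg adjustment over 23304 probe sets. A gene stands for its brightest probe set. The fit was tested on simulated data.

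The 76 gene lists and 20 symbol families were chosen with earlier results of these data known, so they have no p of their own. Named genes were the 30 largest rises and falls called with and without adult replicate 2 and outside cell division and immune lists, the 5 called list members of lowest adjusted p with any in the other direction, the brightest members of lists with few calls, label markers, and members whose call depends on adult replicate 2. Abca1, Abca8a, Abcc4, Kcnd2, Rgs2, Ezh2, Sqle, Atf4, Aars, Psat1, Gars, Grip1, Nid1, Vcan, Ccn2, Dusp9, Cdh11, Tubb6, Tubb2a, Tubb5, Hmga2 and Hmgcs1 were chosen after their values were seen, as were both promoter motifs. Dcn and Mest were named outside these rules, as were genes that complete the count of a list or lay below 49 on every array. Other pseudocounts, scalings, filters, fits, probe set rules and left-out arrays were alternatives. Promoter sequences are RefSeq's.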

Additional observations from a re-analysis of the deposited data

How the results depend on the processing

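The count of 1057 called genes stayed within 1.5 times under pseudocounts of 10 and 200, median centring (742), quantile normalization, no filter (733), a stricter filter, eBayes in robust form or without its trend, all 7 arrays in 1 fit, and the mean of a gene's probe sets. Of the higher calls (475), 295 were called with median centring and 310 with no filter. Array weights gave 2598 calls, 1351 higher and 1247 lower; they weight adult replicate 2 at 0.314 and adult replicate 3 at 4.42. Leaving out 1 array at a time gave 408 to 1360 calls, 123 to 620 higher and 285 to 740 lower; without adult replicate 1 the count was 468, without adult replicate 3 408, without newborn replicate 1 659 and without newborn replicate 2 582, with fewer arrays in each fit. Adult replicate 2 alone against the newborns, an alternative added after seeing the data, gave 216 calls, 45 higher and 171 lower, the lone array being assumed to vary like the newborns. Of 293 called genes in the named set, 264 kept their call without adult replicate 2 and 219 with median centring. The call was kept by 163 without adult replicate 1 and by 150 without adult replicate 3. Leaving out adult replicate 2 with median centring moved the median difference of all genes to 0.10 from -0.01. With the mean of a gene's probe sets, Nfe2l2 turned from 1.18 to -0.56 (adjusted p = 0.245), its other probe set being called the opposite way, and Plat from -1.10 to 0.0063 (adjusted p = 0.994); the cause for Plat was not tested. No paired analysis was possible because the labels give no replicate numbers that the stages share. Every probe set has a value, without a detection call, so low levels such as those of Hdc in adults have no tested lower limit.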

Other observations

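Among the largest falls not described above, Nrk, a kinase gene of embryonic tissue, read 54.6, 95.2 and 122 in adults and 2189, 1212 and 5062 in newborns (log2 difference -4.16, adjusted p = 0.00253). Capn6, a calpain without protease activity, read 335, 985 and 299.8 and 7206, 7519 and 5798 (-3.73, adjusted p = 0.00189). Hdc, the enzyme that makes histamine, read 6.66, 13.1 and 16.1 and 1402, 423 and 740.3 (-3.74, adjusted p = 0.00413), whereas Kit, which mast cells also express, rose. Clca1, a secreted protein of mucous epithelia, read 509, 10.6 and 306 and 5845, 2739.6 and 2029.7 (-3.83, adjusted p = 0.018). In these 4 genes every adult value lay below every newborn one, and adult replicate 2 was the lowest of all arrays for Clca1.

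Among the rises, Retnla, a resistin-like protein of macrophages and fat, read 2636, 1448 and 1911 in adults and 169.7, 160.2 and 38.9 in newborns (3.65, adjusted p = 0.0025). Apod, an apolipoprotein of resting fibroblasts, read 1916, 5818 and 2580.2 and 373, 275 and 366 (3.02, adjusted p = 0.00433), with adult replicate 2 above the other adults. Hal, the enzyme that starts histidine breakdown, read 675, 672 and 788 and 70.4, 36.9 and 49.4 (2.92, adjusted p = 0.00384).

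Semaphorins, which guide axons and vessels, split: Sema3a read 9294, 8819.9 and 8508 in adults and 4305, 2654 and 1899.6 in newborns (1.65, adjusted p = 0.0147), and Sema3d 1005, 727 and 1427 and 4478, 4807 and 3875 (-2.05, adjusted p = 0.00631). With all arrays they were the only called members of 48 tested semaphorins, plexins, ephrins, slits and netrins, of which 12 had a positive and 36 a negative difference. Prdx4, a peroxidase of the endoplasmic reticulum, and Mt2, a metallothionein, fell (-1.70 and -1.23, adjusted p = 0.00381 and 0.0261), and Cldn11, a claudin, fell by 2.73 on the log2 scale (adjusted p = 0.0065).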
